A study of Mus musculus with 6 samples.

Results

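The mitochondrial ribosome translates the few messages encoded in mitochondrial DNA, and its proteins, named Mrpl for the large and Mrps for the small subunit, are all made from nuclear genes. On the array used here 72 of 34492 rows carry such a name, 44 for large and 28 for small subunit proteins. Rows entered the class by the pattern of their name, with no measured value. The class itself was chosen with earlier results of these data known. The samples were RNA from soleus, a calf muscle that works in standing and holds many slow fibres, of males aged 11 months with 1 of 2 genotypes. In the genotype labelled Coco/KO, skeletal muscle alpha-actin was replaced by cardiac actin, per the series title, and the other genotype was wild type. Both carry the strain designation CBB6F1xFVB/n, and no label names the promoter behind the cardiac actin. Each genotype had 3 samples, each a pool of RNA from 2 soleus muscles of different mice, hybridised to 6 positions of 1 Illumina beadchip, so p-values measure the spread between pools.

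The proteins of the respiratory chain that mitochondrial DNA encodes are made only on these ribosomes, which makes the particle a requirement for oxidative metabolism in slow muscle. Its large subunit holds the site where peptide bonds form and the tunnel through which the new protein leaves, close to the inner membrane. Its small subunit holds the site where the message is read. Part of the proteins descend from those of bacterial ribosomes, and others are found only in mitochondria. Mutations in several of the human genes cause disease of muscle, heart or brain.

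The intensities per array averaged between 330.2 and 470.2 over all rows, and between 33.6% and 37.9% of rows had a detection score above 0.95. Correlations between arrays over the tested rows lay between 0.968 and 0.983. Acta1, skeletal muscle alpha-actin, checked the labels: its normalized log2 signal was 15.50, 15.60 and 15.27 in wild-type pools 1, 2 and 3 and 11.17, 10.92 and 10.49 in Coco/KO pools 1, 2 and 3 (limma, adjusted p = 2.96e-05). All 7 slow fibre markers, such as Myh7 and Tnni1, were detected on all 6 arrays. Fewer cells of a type and less RNA per cell cannot be told apart in whole muscle. Of the other cell types, 8 of 8 tested macrophage and leukocyte markers were higher in Coco/KO, with a median log2 difference of 0.68, and 6 of 6 adipocyte markers were lower, with a median of -0.78. The mean log2 signal of the macrophage list was 8.09 to 8.33 over the wild-type and 8.58 to 9.37 over the Coco/KO pools, and that of the adipocyte list 10.34 to 11.39 and 9.68 to 10.35. Fast fibre markers were lower in 6 of 6 (median -0.21). Smooth muscle and pericyte markers were lower in 3 of 3 (median -0.65), as were Schwann cell markers in 3 of 3 (median -0.22). The 7 slow fibre markers had a median of 0.04. Of these, Tnni1 was 0.91 higher with no overlap, and the others lay between -0.08 and 0.13. Ptprc and Plin1 were detected on no array. None of these markers passed the threshold, and their part in the results below was not tested.

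No mitochondrial ribosomal protein gene passed the test between the genotypes. A row was tested when its detection score exceeded 0.95 on 3 or more arrays, which left 64 of the 72, and 0 of the 64 had an adjusted p under 0.05 (limma, Benjamini-Hochberg over all 12611 tested rows, of which 0.143% passed, 0.0634% higher and 0.0793% lower in Coco/KO). At an unadjusted p under 0.05 the count was also 0, where 8.19% of all tested rows lay under that value. The log2 difference between Coco/KO and wild type was above 0 for 38 genes and below 0 for 26, with a median of 0.03, beside a median of -0.0003 over all tested rows. The differences ran from -0.33 for Mrps18a to 0.50 for Mrpl9. In values with 58.7 units added before the log2 step, that is from 1.25-fold lower to 1.42-fold higher. For 58 of the 64 genes (90.6%) the difference was smaller than 0.25 in either direction, against 73.0% of all tested rows.

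The arrays bound how large a change could have been missed. Of the 64 genes, 63 had a 95% confidence interval wholly between -1 and 1 on the log2 scale, and the exception was Mrpl9 with an upper limit of 1.02. These bounds stand for a 2-fold change either way in values that had 58.7 units added before the log2 step. For dim genes the same interval allows a larger change of the intensity itself. Intervals within -0.5 and 0.5 were reached by 20 genes, or 31.2%, against 36.5% of all tested rows. How small a change the intervals leave possible thus differed from gene to gene. The spread between pools of a genotype, as a median SD over the 64 genes, was 0.22 on the log2 scale, the same to 2 decimals as over all tested rows (0.22). Each value rested on a median of 34 beads, and the standard error of the beads was 5.54% of the intensity at the median gene, while the spread between pools came to 15.2%.

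**Figure D1:**
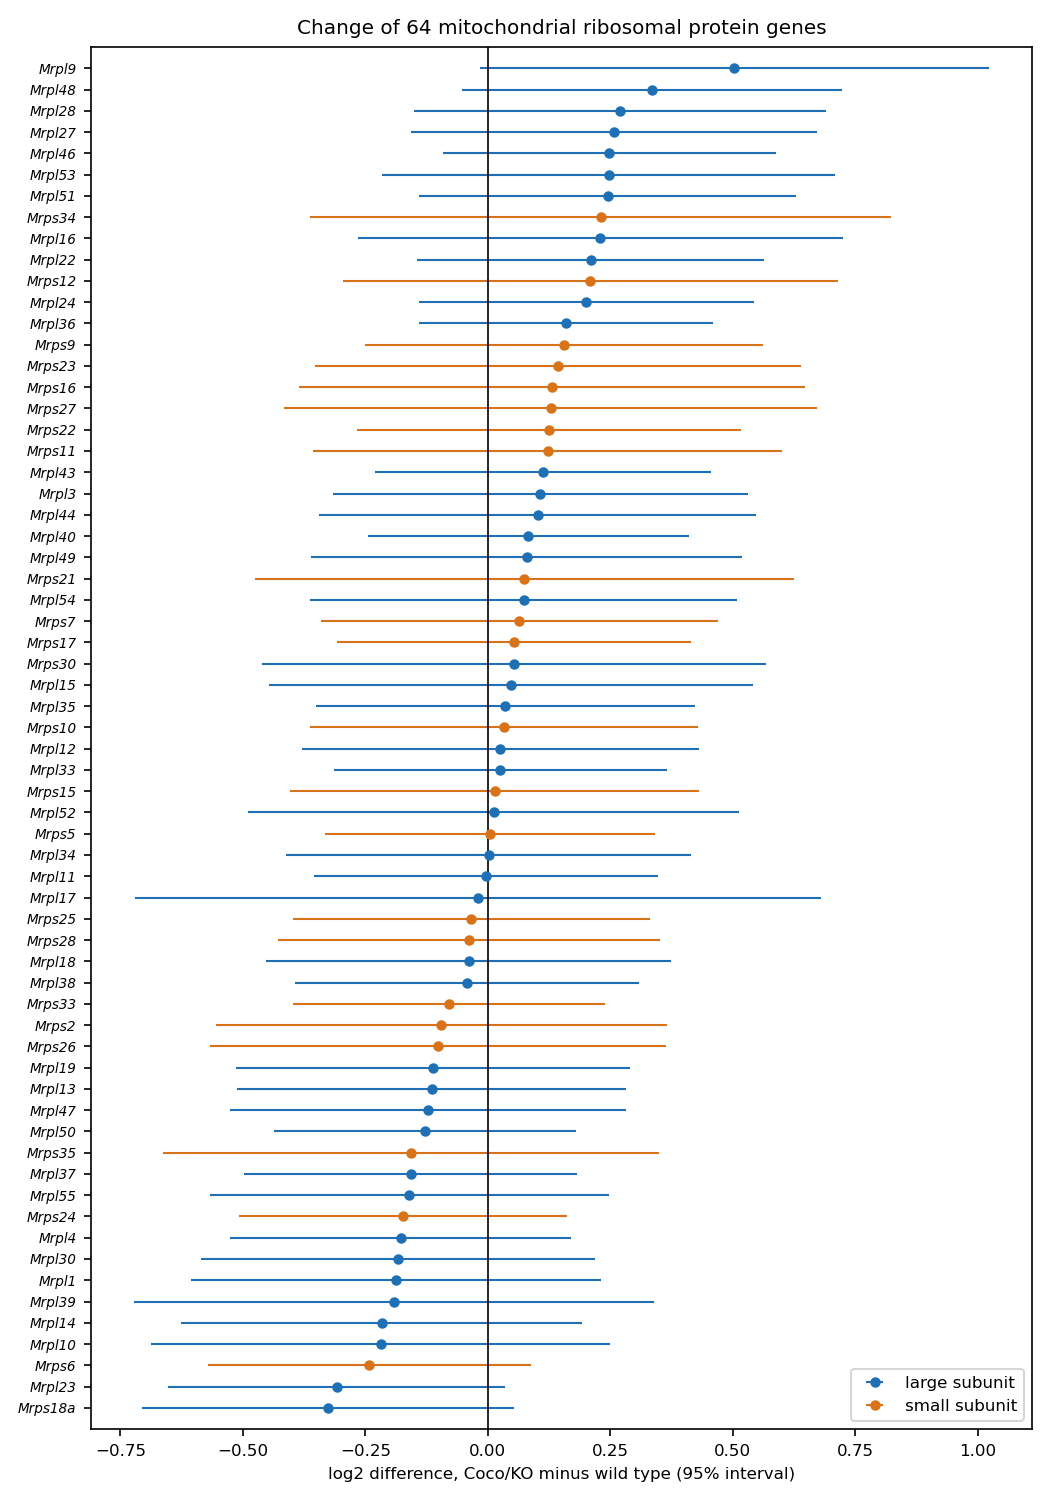
Log2 difference between Coco/KO and wild-type soleus (x axis) for the 64 tested genes (y axis, sorted), with 95% confidence intervals of the limma fit (n = 3 pools per genotype) and colours for the subunit that holds the protein. All 64 intervals include 0, and the differences run from -0.33 for Mrps18a to 0.50 for Mrpl9.

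The 12 genes of lowest p all code for large subunit proteins except Mrps6, and they went both ways. Mrpl9, a large subunit protein descended from bacterial L9, had log2 signals of 8.23, 8.11 and 8.37 in wild-type pools 1, 2 and 3 and of 9.25, 8.60 and 8.36 in Coco/KO pools 1, 2 and 3. Coco/KO pool 1 stood far above the rest, while Coco/KO pool 3 lay just below wild-type pool 3, so the groups overlapped. The difference was 0.50 (SE 0.23, limma adjusted p = 0.624), and it was 0.25 without Coco/KO pool 1 and 0.30 with a modelled background. Over 22 alternatives in processing the difference of Mrpl9 ran from 0.25 to 0.69. Its unadjusted limma p was under 0.05 in 3 of them, and its lowest adjusted p was 0.460. Mrpl48, of the central protuberance of the large subunit, was at 9.37, 9.58 and 9.32 in wild type and at 9.86, 9.93 and 9.48 in Coco/KO (difference 0.34, SE 0.17, adjusted p = 0.670). Coco/KO pool 3 of Mrpl48 fell among the wild-type pools.

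Mrpl23 lies at the rim of the tunnel exit, where the new protein emerges. Its log2 signals were 12.34, 12.26 and 12.50 in wild type and 12.06, 12.21 and 11.89 in Coco/KO, and all 3 Coco/KO pools lay below all 3 wild-type pools. The difference of -0.31 (SE 0.15) had an adjusted p of 0.656 in limma. Mrps18a is 1 of 3 mammalian relatives of bacterial S18 and, in spite of its name, sits in the large subunit. It was at 10.88, 10.63 and 10.70 in wild type and at 10.27, 10.68 and 10.28 in Coco/KO, where pool 2 reached the wild-type range (difference -0.33, SE 0.17, adjusted p = 0.672).

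Promoters are shown for Mrpl9, Mrpl48, Mrps18a and Mrpl36, picked because they carry a match to a short motif, and for Mrpl23, which carries none. Mrpl48 had 4 promoter entries, and an entry with the ETS match is shown. The 80 bases before the transcription start, 5′ to 3′ on the strand of the gene, were taken from RefSeq on GRCm38.p6, and capitals mark a match to the motif of NRF1, of the ETS factors or of YY1, as named on each line.
Mrpl9, chr3:94443256-94443335, plus strand, NRF1 match: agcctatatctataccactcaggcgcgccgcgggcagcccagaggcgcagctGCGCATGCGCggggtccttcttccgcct
Mrpl48, chr7:100583131-100583210, minus strand, ETS match: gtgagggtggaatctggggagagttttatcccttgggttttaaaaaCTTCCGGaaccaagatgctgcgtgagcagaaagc
Mrps18a, chr17:46110924-46111003, plus strand, ETS match: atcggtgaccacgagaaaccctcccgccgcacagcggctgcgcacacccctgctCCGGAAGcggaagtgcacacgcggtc
Mrpl36, chr13:73330929-73331008, plus strand, YY1 match: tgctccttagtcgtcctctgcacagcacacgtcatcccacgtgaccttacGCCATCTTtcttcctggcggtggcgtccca
Mrpl23, chr7:142532952-142533031, plus strand, no match: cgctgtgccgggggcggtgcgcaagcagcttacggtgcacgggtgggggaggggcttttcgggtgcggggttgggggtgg

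Matches to the NRF1, ETS and YY1 motifs were found in larger shares of the promoters of the class than of all genes or of those with a tested row, but not than of every related class, which describes the sequence and was not tested. The windows reached from 250 bases before to 50 after the start, and 63 of the 72 genes matched an entry. The motif of NRF1, a regulator of many mitochondrial genes, was searched as GCGC and TGCGC with 1 base of any kind between them, and was found on either strand in 12 of the 63 genes (19.0%), beside 10.6% of the 7448 genes with a tested row and a window and 5.19% of 27025 genes in all. CCGGAAG, the core bound by ETS factors such as GABPA, was found in 24 (38.1%), beside 18.9% and 9.93%. AAGATGGC, part of the YY1 motif, was found in 11 (17.5%), beside 5.42% and 3.19%. CCAAT, the box of NFY, was found in 23 (36.5%), beside 42.3% and 41.1%. At least 1 of the first 3 motifs was present in 40 genes (63.5%), against 30.5% of the genes with a tested row, and no matches of different motifs among these 3 overlapped in a window of the class. Of their 54 matches, 46 (85.2%) lay within the stretch from 100 bases before to 50 after the start, which is 50% of the window. The same share was not computed for other genes, so it cannot be called particular to the class. In the same windows cytosolic ribosomal protein genes carried at least 1 of the 3 motifs in 56.2% and respiratory chain subunit genes in 53.8%. By single motif, NRF1 was found in 24.4% of the respiratory chain and 9.38% of the cytosolic ribosomal protein genes, ETS in 24.4% and 40.6%, and YY1 in 14.1% and 9.38%. The share was thus higher than in the mitochondrial ribosomal class for NRF1 in the respiratory chain and for ETS in the cytosolic ribosome.

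Differences between the genotypes are given by motif as medians. The 21 tested genes with an ETS match had a median log2 difference of 0.11 and the 34 without one a median of 0.02. With an NRF1 match the median was 0.003 over 10 genes, and without it 0.05 over 45. For YY1 the medians were 0.07 over 10 genes and 0.03 over 45. Each of the 6 sets held genes with differences of both signs.

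**Figure D2:**
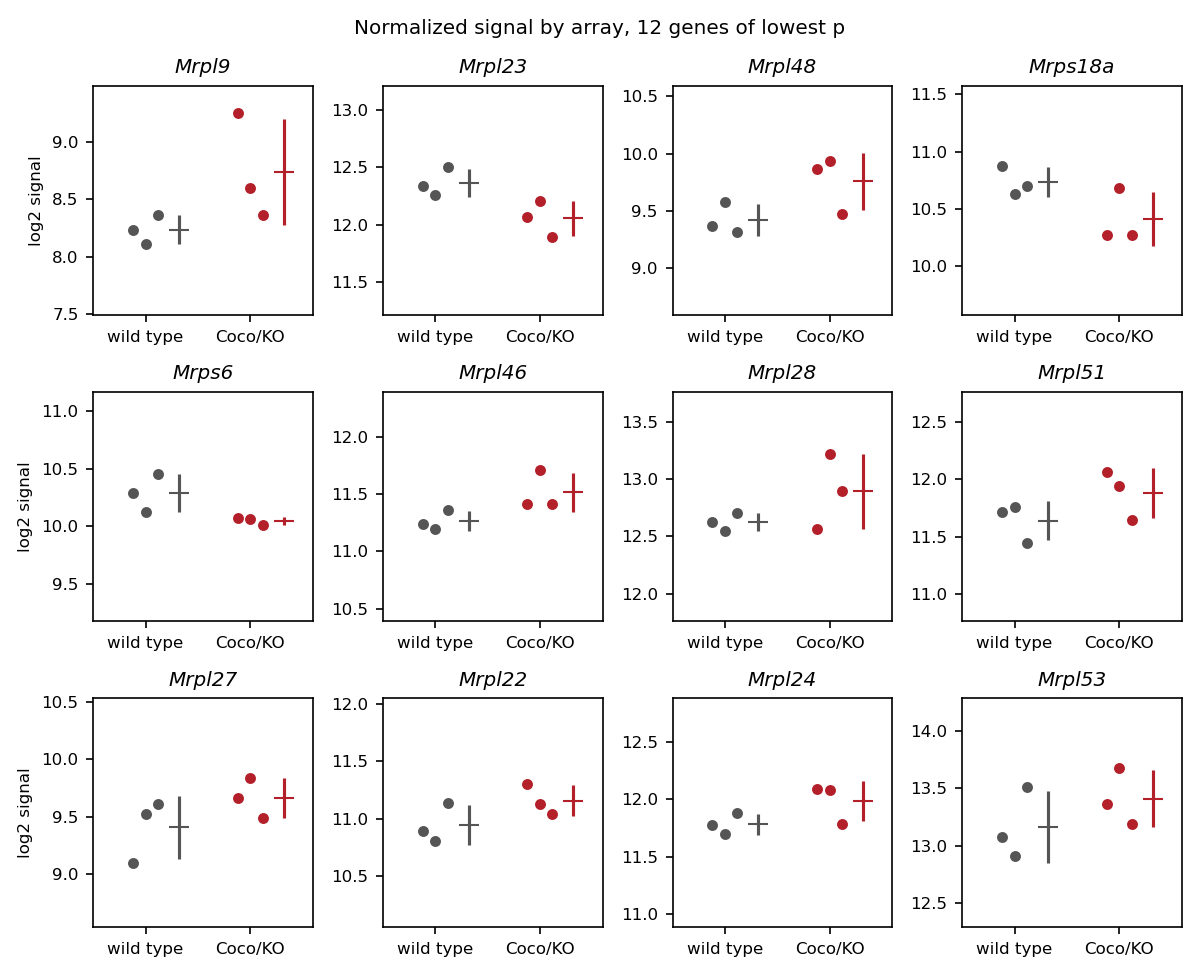
Normalized log2 signal (y axis, a span of 2 units in each panel) of the 12 genes of lowest p in the 3 wild-type and 3 Coco/KO pools (points, drawn in the order of pools 1, 2 and 3), with the mean and SD of each group beside them. In this set the groups do not overlap for Mrpl23, Mrps6 and Mrpl46.

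In 5 of the 64 genes (7.81%) all 3 pools of a genotype lay above all 3 of the other, where 12.7% of all tested rows had no overlap. Higher in Coco/KO were 2, Mrpl46 and Mrpl36, beside 6.13% of all rows, and lower were 3, Mrpl23, Mrps6 and Mrpl50, beside 6.61%. Mrpl46, of the central protuberance like Mrpl48, was at 11.24, 11.20 and 11.36 in wild type and at 11.42, 11.71 and 11.42 in Coco/KO (difference 0.25, SE 0.15, limma adjusted p = 0.739), and the difference was 0.15 without Coco/KO pool 2. Mrps6, the relative of bacterial S6 in the small subunit, was at 10.29, 10.13 and 10.45 in wild type and at 10.07, 10.06 and 10.01 in Coco/KO. The Coco/KO pools of Mrps6 were closely spaced, and the highest of them lay just below the lowest wild-type pool (difference -0.24, SE 0.14, adjusted p = 0.737), and the difference was -0.16 without wild-type pool 3. For Mrpl36, the relative of bacterial L36, the difference was 0.16 (SE 0.13), and for Mrpl50, found only in mitochondria, it was -0.13 (SE 0.14). For groups of 3 pools without overlap, an exact two-sided permutation test always gives p = 0.1, the smallest value possible. For these 5 it therefore only restates the lack of overlap.

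Seen by subunit, no gene of either part of the particle passed. The large subunit, with Mrps18a and Mrps30 counted in it where their proteins sit, had 42 tested genes, 24 above and 18 below 0, with a median log2 difference of 0.03. The small subunit had 22 tested genes, 14 above and 8 below 0, with a median of 0.04. The 41 tested genes descended from bacterial ones had a median of 0.01 and the 23 found only in mitochondria a median of 0.08. The large subunit, with more tested genes, held the wider range, from -0.33 to 0.50, while the small subunit lay between -0.24 and 0.23. A range tends to widen with the number of genes. The median size of the difference, without its sign, was 0.14 in the large and 0.11 in the small subunit.

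Within the large subunit, the genes around the tunnel and at the stalk gave a mixed picture. Mrpl22 and Mrpl24, which line or border the exit tunnel, had differences of 0.21 (SE 0.16) and 0.20 (SE 0.15), opposite in sign to Mrpl23. Mrpl22 was at 10.89, 10.81 and 11.14 in wild type and at 11.31, 11.13 and 11.04 in Coco/KO, with overlapping groups, and its difference was 0.13 without Coco/KO pool 1. The stalk, which recruits translation factors, is built from the proteins of Mrpl10 and Mrpl12. Mrpl12, which in mammals also binds the mitochondrial RNA polymerase, was at 12.88, 12.57 and 12.87 in wild type and at 12.68, 13.10 and 12.62 in Coco/KO, a difference of 0.03 (SE 0.18). Mrpl10 was dim, at 7.17, 6.98 and 7.41 against 6.61, 7.29 and 7.02, with a difference of -0.22 (SE 0.21). Its mean intensity of 77.5 is close to the 58.7 units added before the log2 step, so its differences are understated.

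Among the other genes of lowest p, Mrpl28, Mrpl51, Mrpl27 and Mrpl53 were higher on average in Coco/KO. Mrpl28 was at 12.62, 12.55 and 12.70 in wild type and at 12.57, 13.22 and 12.89 in Coco/KO, where pool 1 lay inside the wild-type range. Its difference was 0.27 (SE 0.18) and became 0.10 without Coco/KO pool 2 and 0.43 without Coco/KO pool 1. Mrpl51 had a difference of 0.24 (SE 0.17), Mrpl27 of 0.26 (SE 0.18) and Mrpl53 of 0.25 (SE 0.20). Single pools carried part of these values: Mrpl51 was at 0.14 without wild-type pool 3 and 0.15 without Coco/KO pool 1 (0.11 with chip position in the fit), and Mrpl27 at 0.10 without wild-type pool 1 and 0.17 without Coco/KO pool 2. Mrpl53 was at 0.13 without wild-type pool 2, 0.41 without wild-type pool 3 and 0.11 without Coco/KO pool 2. None of the 4 had a limma adjusted p below 0.780, and the groups overlapped in each.

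Genes whose human counterparts cause mitochondrial disease when mutated were examined by name. Mrpl3, near the peptide bond site, was at 10.36, 9.98 and 10.52 in wild type and at 10.25, 10.62 and 10.31 in Coco/KO, a difference of 0.11 (SE 0.19). Mrpl44, whose human gene is linked to cardiomyopathy, was at 9.14, 9.21 and 9.27 against 9.66, 9.36 and 8.92, a difference of 0.10 (SE 0.20). The 3 Coco/KO pools of Mrpl44 lay on both sides of the wild-type range. In the small subunit, Mrps34 had the largest standard error of this group, with 12.14, 11.63 and 11.26 in wild type and 11.94, 12.26 and 11.53 in Coco/KO (difference 0.23, SE 0.26). Mrps16 (0.13, SE 0.23), Mrps7 (0.06, SE 0.18), Mrps22 (0.12, SE 0.17) and Mrps2 (-0.10, SE 0.20) also had overlapping groups. Mrps22 and Mrps2 were dim, with mean intensities of 47.6 and 85.5.

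The rows of highest signal were Mrps24, Mrpl33, Mrpl53 and Mrpl14, which measures the brightness of those rows and not the amount of one transcript against another. Mrps24, the relative of bacterial S3 at the entry of the message, was at 14.14, 14.00 and 14.07 in wild type and at 13.70, 14.01 and 13.98 in Coco/KO (difference -0.17, SE 0.15). Mrpl33 had a difference of 0.02 (SE 0.15) and Mrpl14 of -0.22 (SE 0.18). The rows of lowest signal among the tested ones were Mrps22, Mrpl10, Mrps2 and Mrps26, the last with a difference of -0.10 (SE 0.20).

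The 8 genes that were not tested were of 2 kinds. Mrpl21, Mrpl32, Mrpl45 and Mrps14 had intensities near background, between -6.90 and 23.0 on every array, and Mrpl21 came nearest to the rule with 2 arrays above the detection score of 0.95. Mrpl45, which anchors the ribosome to the inner membrane in mammals, was detected on none. The other 4, Mrpl20, Mrps18c, Mrps31 and Mrps18b, were bright. Mrpl20 had intensities of 4487, 6900 and 6320 in wild type and 5457, 5724 and 8038 in Coco/KO, and passed the detection score on 1 array.

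Low detection scores on bright rows were also seen outside the class. Of all rows on the array, 283 of the 5325 rows with a mean intensity above 200 were not tested (5.31%), and in the class 4 of 62. Just inside the rule lay Mrps10 and Mrpl19, each detected on 4 arrays, with mean intensities of 1050 and 194.6. No source used here says how the deposited score was made for such rows, and the cause was not tested.

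**Figure D3:**
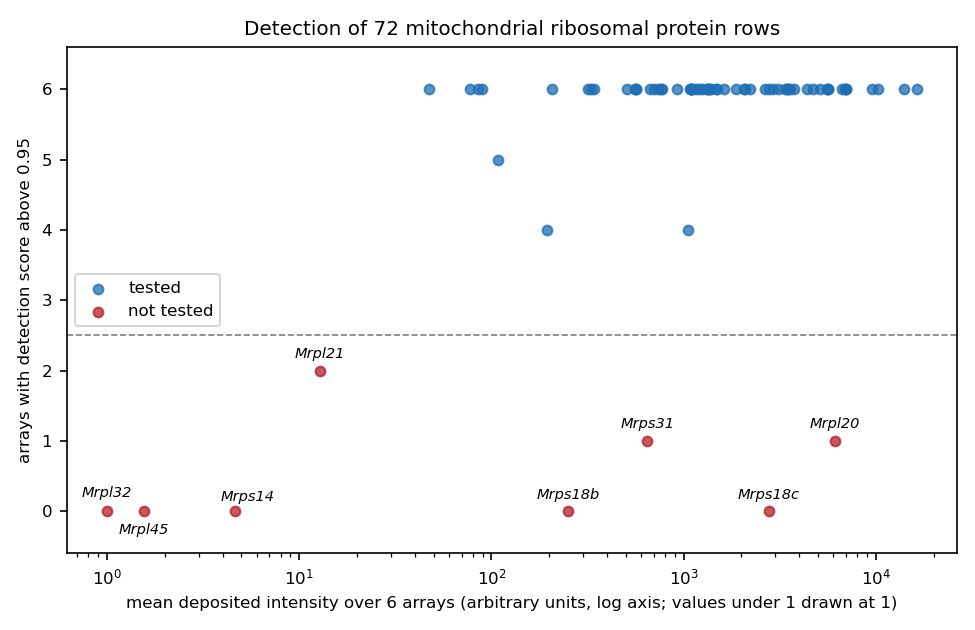
Number of arrays with a detection score above 0.95 (y axis) against the mean deposited intensity over the 6 arrays (x axis, log scale, values under 1 drawn at 1) for the 72 rows. The dashed line marks the rule of 3 arrays, and Mrpl20, Mrps18c, Mrps31 and Mrps18b lie under it at intensities between 250.2 and 6154.

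With no filter on dim rows the 4 bright genes did not pass either. The differences were 0.08 for Mrpl20, -0.07 for Mrps31, -0.13 for Mrps18c and -0.24 for Mrps18b (limma adjusted p = 0.975, 0.982, 0.948 and 0.824). Mrps18b had log2 signals of 8.39, 8.46 and 8.28 in wild type and of 7.97, 8.32 and 8.11 in Coco/KO, with pool 2 of Coco/KO above the lowest wild-type pool. Mrps18c was at 11.29, 11.62 and 11.60 against 11.47, 11.44 and 11.22. All 3 relatives of bacterial S18 therefore had lower means in Coco/KO, and none passed. Whether their array rows distinguish these related genes could not be checked.

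The class as a whole varied from pool to pool within each genotype. Measured against each gene's mean over the 6 arrays, the median over the 64 genes was -0.06, -0.07 and 0.08 in wild-type pools 1, 2 and 3 and 0.01, 0.14 and -0.11 in Coco/KO pools 1, 2 and 3. The highest and the lowest array were thus both Coco/KO. In Coco/KO pool 2, 49 of 64 genes lay above their own mean, and in Coco/KO pool 3, 18 did, where the shares over all tested rows were 49.3% and 46.9%. Wild-type pool 3 had 43 genes above. These medians are of single arrays, while the median genotype difference of 0.03 compares means of 3 pools. The 2 measures are therefore not directly comparable in size.

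The mean intensity of the whole array was lowest in Coco/KO pool 2 (330.2) and highest in Coco/KO pool 3 (470.2), and the macrophage list was highest in Coco/KO pool 3. The part of either in this pattern was not tested. Both the large and the small subunit were highest in Coco/KO pool 2 (0.15 and 0.14) and lowest in Coco/KO pool 3 (-0.09 and -0.17). With each array scaled to a common median in place of quantile normalization, the lowest array was wild-type pool 1 (-0.22) and the highest wild-type pool 3 (0.11). With cyclic loess normalization the highest and lowest arrays stayed Coco/KO pool 2 (0.15) and Coco/KO pool 3 (-0.09). The same held with a modelled background (0.13 and -0.10) and with an offset of 50 (0.13 and -0.11). Among these settings the highest and lowest pools thus changed with median scaling only.

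**Figure D4:**
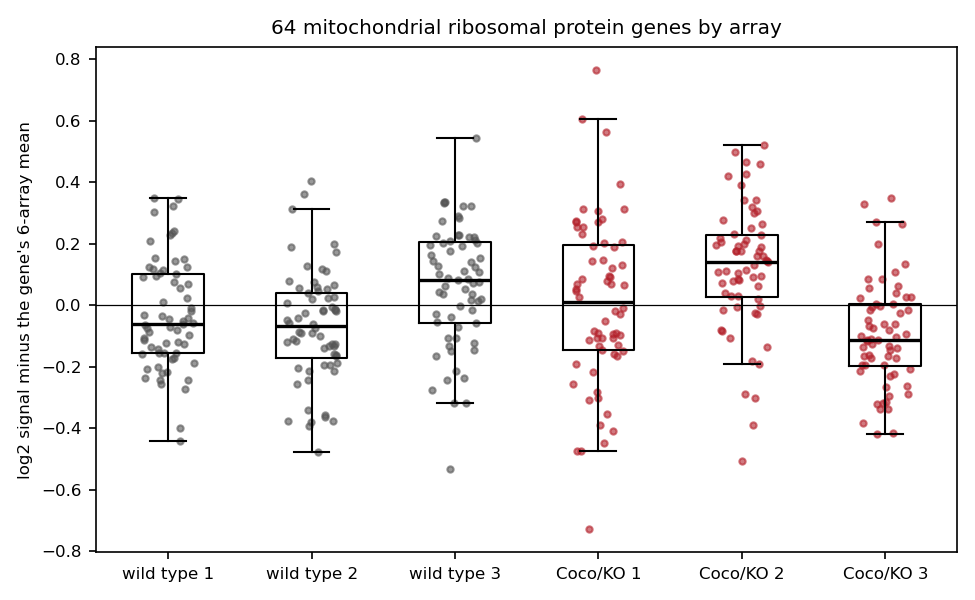
Normalized log2 signal minus the gene's mean over 6 arrays (y axis) for the 64 tested genes on each array (x axis). Boxes span the quartiles with the median as a line, whiskers reach the furthest point within 1.5 box lengths, and points are genes. The medians run from -0.11 in Coco/KO pool 3 to 0.14 in Coco/KO pool 2.

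Other genes of mitochondrial gene expression were examined as 6 lists, in which 0 genes had an adjusted p under 0.05. Of 6 tested mitoribosome proteins whose names fall outside the Mrpl and Mrps pattern, none passed, and their median was 0.14. Ptcd3, a small subunit protein that binds RNA, had a difference of 0.25 (SE 0.21), Aurkaip1 of 0.21 (SE 0.18) and Mrpl58, which frees stalled peptides, of 0.19 (SE 0.18). Among 12 translation factors none passed (median 0.12). The initiation factor Mtif2 had a difference of -0.30 (SE 0.18), the release factor Mtrf1l of -0.39 (SE 0.26) and Taco1, a translational activator, of 0.22 (SE 0.16).

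Among 13 mitochondrial aminoacyl-tRNA synthetases, which charge the transfer RNAs, none passed (median 0.001). In 3 of the 13 (23.1%) the groups did not overlap, beside 12.7% of all tested rows, and this difference in share was not tested. Fars2, for phenylalanine, was lower with no overlap (-0.24, SE 0.13), and Tars2, for threonine, had a difference of 0.31 (SE 0.17).

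Of 17 tested genes of ribosomal RNA modification and ribosome assembly none passed over all rows (median 0.09), and Tfb1m had the lowest p of them. In 3 of the 17 (17.6%) the groups did not overlap, beside 12.7% of all tested rows. Tfb1m methylates the ribosomal RNA of the small subunit. Its log2 signals were 9.07, 9.16 and 9.33 in wild type and 9.46, 9.70 and 9.74 in Coco/KO, and the 2 groups did not overlap. The difference was 0.44 (SE 0.15), with an unadjusted limma p of 0.0175 and an adjusted p of 0.455. Gtpbp10, an assembly GTPase, was lower with no overlap and near background (-0.29, SE 0.16). Ybey, an RNA-processing enzyme, had a difference of 0.24 (SE 0.16) and was also near background, with means of 6.31 in wild type and 6.55 in Coco/KO.

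Mitochondrial DNA transcription and upkeep held 10 tested genes and none passed (median 0.04), with 0.23 (SE 0.17) for Ssbp1, the mitochondrial single-strand DNA binding protein, -0.14 (SE 0.15) for the polymerase subunit Polg2 and 0.14 (SE 0.16) for Tfam, which packages mitochondrial DNA. Of 6 tested nuclear regulators none passed (median -0.04). The coactivator Ppargc1a varied most, at 9.66, 10.53 and 8.93 in wild type and at 7.54, 9.12 and 9.73 in Coco/KO (difference -0.91, SE 0.56, limma adjusted p = 0.748). Its lowest pool was Coco/KO pool 1 and its highest wild-type pool 2, and the other pools of the 2 genotypes overlapped. The related Ppargc1b had a difference of -0.48 (SE 0.21) and Pprc1 of 0.46 (SE 0.27). Pprc1 was near background and detected on 3 arrays, with mean log2 signals of 5.93 in wild type and 6.38 in Coco/KO. Nrf1, whose motif is named above, had a difference of -0.07 (SE 0.15).

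**Figure D5:**
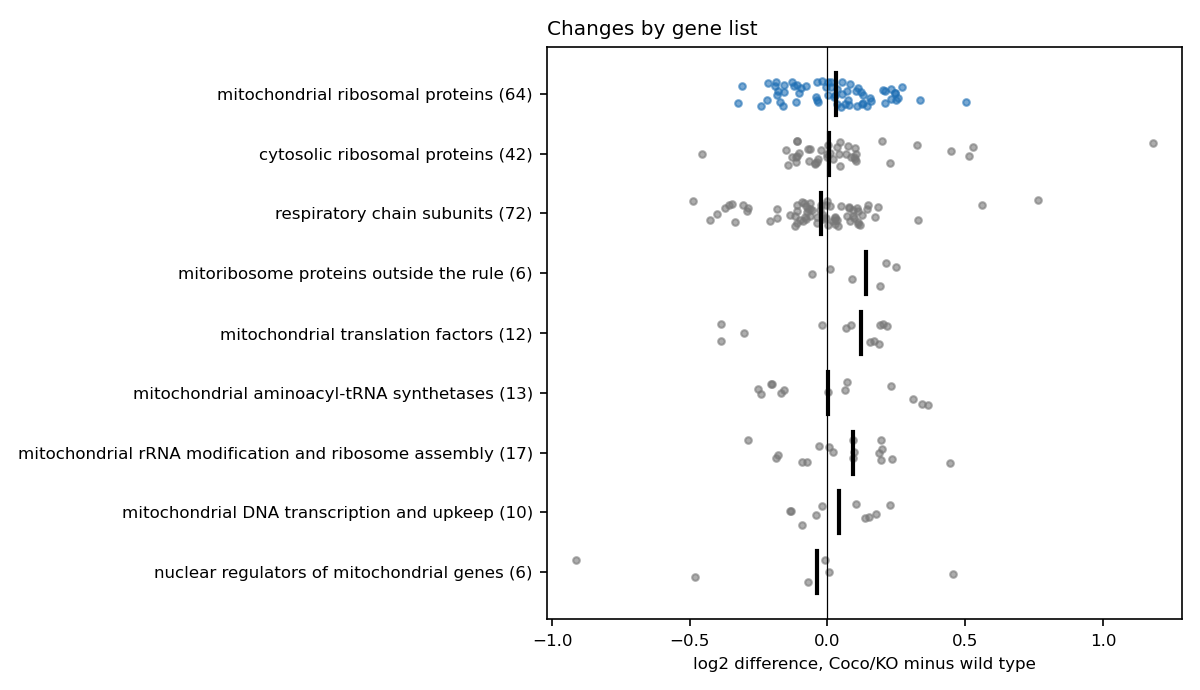
Log2 difference between Coco/KO and wild type (x axis) for the tested genes of each list (rows, with the number of genes in brackets); points are genes and black bars medians. Medians lie between -0.04 and 0.14, and no gene shown passed the threshold.

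The values of 2 related classes are set beside these, and the difference between the classes was not tested. Both were drawn by the pattern of the row name. The respiratory chain class therefore includes Emc8 and the assembly factor genes Ndufaf1 and Ndufaf2, and the cytosolic class includes like-named genes such as Rpl7l1. Of 42 tested cytosolic ribosomal protein rows none passed, 2 had an unadjusted limma p under 0.05, and the median log2 difference was 0.005. Of 72 tested respiratory chain subunit rows none passed, 4 had an unadjusted p under 0.05, and the median was -0.02. Over all tested rows 8.19% had an unadjusted limma p under 0.05. The median size of the difference, without its sign, was 0.12 for the mitochondrial ribosomal proteins, 0.10 for the cytosolic ones, 0.09 for the respiratory chain and 0.14 over all tested rows.

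Many of these genes lie head to head with a neighbour. According to RefSeq, 23 of the 63 genes with a window (36.5%) had a start site of another gene on the opposite strand within 1000 bases upstream, beside 18.7% of the genes with a tested row and 12.25% of all genes. Mrpl46 and Mrps11, a member of each subunit, form such a pair, and the 41 bases between their starts are shown on the strand of Mrpl46. The label of no match covers these 41 bases only, and the full window of Mrps11 held a YY1 match.
Mrpl46 to Mrps11, chr7:78783090-78783130, minus strand, no match: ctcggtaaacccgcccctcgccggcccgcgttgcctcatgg
Both genes of this pair had higher means in Coco/KO, 0.25 (SE 0.15) for Mrpl46 and 0.12 (SE 0.21) for Mrps11. Mrps12, at the site where the message is read, shares its start region with Sars2, the synthetase for serine, and the differences were 0.21 and 0.06. Mrpl43 lies beside Twnk, the helicase of mitochondrial DNA (0.11 and -0.09), and Mrpl47 beside the complex I subunit gene Ndufb5 (-0.12 and -0.10). Over the 14 genes whose neighbour was also tested, 8 had a difference of the same sign as the neighbour, and no neighbour passed the threshold. Mrpl46 and Mrps11 count once each among these 14.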

How the data were processed

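The scanner table holds deposited intensity values per row and array, exported from BeadStudio 3.2.6 with its normalization set to none, per the file headers. Between 30.1% and 32.9% of the deposited intensities were at or below 0, so background had been subtracted. The deposited detection score is a fraction between 0 and 1. The deposited number of beads and bead SD gave the signal's technical error. A second deposited table was not used, because nothing used here pairs its probes with genes.

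A constant of 42.7 was added so that the lowest intensity was 1, then an offset of 16. The log2 of these values was quantile normalized. Rows with a score above 0.95 on 3 or more arrays were fitted on genotype with limma 3.58.1 in R 4.3.3, with Benjamini-Hochberg adjustment over 12611 rows and a threshold of 0.05. The procedure was tested on simulated data. Intervals are 95% from the moderated fit. All 72 names matched a RefSeq symbol (GRCm38.p6).

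Samples were grouped by title. Replicate numbers name different mice and were not used as a block. The genes, lists and motifs were chosen with earlier results of these data known. Genes named with all values followed a rule: the 12 of lowest p, the 4 of highest and 4 of lowest signal, those detected on 2 or 3 arrays, the S18 relatives, the stalk, human disease genes and up to 3 of lowest p in each list. One result under this rule is not reported here. Genes without overlap, the bright rows not tested, head-to-head pairs, Nrf1, Mrps10 and Mrpl19 were added after values were seen. Alternatives covered normalization, offset, background, filters, variance model, array weights, replicate block, chip position, rows per gene, threshold and each array left out.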

Additional observations from a re-analysis of the deposited data

How the results depend on the processing

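In 22 alternatives the count of mitochondrial ribosomal protein genes past the threshold, and that of the 6 lists beside them, stayed at 0 (lowest limma adjusted p of such a protein gene 0.460, without Coco/KO pool 3). The median log2 difference of the genes ranged from 0.01 to 0.08 in the 16 alternatives with all arrays, and from -0.01 to 0.08 with 1 array left out, turning negative without Coco/KO pool 2 (-0.01) or wild-type pool 2 (-0.002). The signs of 28 of the 64 tested genes never turned. Genes with an unadjusted p under 0.05 numbered 1 with median scaling, offset 50 or offset 100, 3 with modelled background and 2 with no filter, and 0 to 2 with 1 array left out (1 without Coco/KO pool 1 or 2 and 2 without pool 3). The shares of all rows under that value were 7.01%, 8.10%, 8.08%, 6.92% and 6.47% in these 5 settings, in the same order. With 1 array left out they were 6.48% to 9.15%. Genes without overlap numbered 8 to 17 with 1 array left out, where fewer arrays make separation easier and the background was 20.6% to 24.9%: 10, 8 and 11 without wild-type pool 1, 2 or 3, and 9, 10 and 17 without Coco/KO pool 1, 2 or 3. Over all tested rows, 18 passed, against 2 with offset 100 or modelled background, 9 with offset 50 or detection on all 6 arrays, 11 with chip position and 5 to 27 with 1 array left out (6, 9 and 6 without wild-type pool 1, 2 or 3, and 27, 8 and 5 without Coco/KO pool 1, 2 or 3). The causes were not tested. A filter on intensity above 50, chosen after seeing the data, tested 68 of the genes and called 0. The replicate block gave 13 rows in all and 0 of the class. Correlations of deviations between same-numbered pools were -0.04, -0.29 and 0.09, and between differently numbered pools they lay between -0.21 and 0.27. With 3 pools per genotype these values cannot decide whether the numbers pair the samples. The 58.7 units added understate the changes of dim genes, and 3 pools per genotype limit what could be detected.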
